A study of Homo sapiens with 4 samples.

Results

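The genes described here carry out protein folding and quality control in the endoplasmic reticulum (ER), signal its overload through the unfolded protein response (UPR), and modify, fold, export, cut and cross-link collagens. They were chosen by symbol from a list of 48 names. Of these, 47 were found among the 61806 genes of the count table, and the remaining name, LEPRE1, is an older symbol of P3H1, which was counted under its current name. The 47 genes were 22 of ER folding and the UPR and 25 of collagen processing. They were read in U251-MG cells, an established human glioma line labelled as wild type and grown in DMEM with fetal bovine serum. The COL8A1 group (2 libraries) had been infected with a lentivirus made from the pCDH-CMV-MCS-EF1-puro vector with the COL8A1 cDNA, and the NC group (2 libraries) with a negative control vector of the same kind. Both groups therefore carried a lentiviral insertion, and all results come from 1 cell line. The labels do not say whether the cells were a clone or a pool, how long they were kept after infection, or whether replicates were cultured separately. The p-values are thus set by how far apart these 4 libraries lay, and that distance may be purely technical.

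The ER receives nascent secreted proteins, holds them with chaperones such as BiP (HSPA5) and calreticulin (CALR), and forms their disulfide bonds with protein disulfide isomerases. When unfolded protein accumulates, the membrane sensors ATF6, IRE1 (ERN1) and PERK (EIF2AK3) start the UPR. Cleaved ATF6 and the spliced form of XBP1 then switch on chaperone genes and genes of ER-associated degradation (ERAD), which returns misfolded proteins to the cytosol for disposal. Collagens need further steps: their prolines and lysines are hydroxylated, the triple helix is guarded by the chaperone HSP47 (SERPINH1), large cargo leaves through COPII carriers with the help of TANGO1 (MIA3), fibrillar procollagens lose their propeptides to proteases, and lysyl oxidases cross-link the fibres. The protein encoded by COL8A1 is itself a collagen chain, of the network-forming type VIII, and passes through the same compartment.

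The libraries held 27923796 to 33576228 counts, and TMM factors ran from 0.993 to 1.01. Levels are given as CPM (counts scaled to the TMM-adjusted library size), always in the order NC replicate 1, NC replicate 2, COL8A1 replicate 1 and COL8A1 replicate 2. For comparisons between genes, CPM was divided by the merged exon length of the gene (RPKM). One count was worth 0.0297 to 0.0360 CPM. COL8A1 itself had 77, 82, 4290 and 2259 counts, in the direction of the labels. Its log2 fold change was 5.45 (SE 0.315), with an edgeR adjusted p = 0.0681 and a DESeq2 adjusted p of 6.25e-72. Thus the forced gene itself did not pass an edgeR adjusted p of 0.05. The 22 ER genes took 0.752% to 0.838% of each library and the 25 collagen processing genes 0.293% to 0.311%. The glial markers VIM (2597, 3044, 3144 and 2701 CPM), SOX2 (528, 591, 691 and 578 CPM) and NES (412, 392, 452 and 426 CPM) were abundant, GFAP was at 0.685, 0.564, 2.05 and 1.84 CPM, and AQP4 and ALDH1L1 had 0 counts in each library. Of the 10 glial markers tested all 10 had positive log2 fold changes (median 0.25, 5 at an unadjusted edgeR p under 0.05, 0 past the adjusted threshold in edgeR and 2 in DESeq2), with summed levels of 4508 and 5106 CPM in the NC and 5495 and 4917 CPM in the COL8A1 libraries. Of 7 fibroblast and pericyte markers tested 6 were positive (median 0.25), with summed levels of 657 and 706 CPM in NC and 968 and 768 CPM in COL8A1 cells. These sums were mostly PDGFRA (463, 496, 709 and 514 CPM) and THY1 (184, 199, 248 and 242 CPM). DCN, LUM and FAP lay at 1.825 CPM or less in each library, and ACTA2 had the negative log2 fold change (−0.11). Other marker lists summed, in library order, to 5.38, 6.05, 3.96 and 4.68 CPM (leukocyte), 245, 162, 249 and 185 CPM (epithelial), 71.9, 71.6, 85.9 and 67.9 CPM (endothelial) and 34.5, 35.4, 29.6 and 32.8 CPM (neuron and oligodendrocyte). Of these lists CD3E, AIF1, MS4A1, MOG and MAG had 0 counts in each library. CD68 (141, 187, 107 and 115 counts), KRT14 (94.0, 96.9, 82.6 and 89.8 CPM), KRT5 (55.4, 52.0, 56.7 and 84.5 CPM), CDH5 (62.8, 62.6, 78.3 and 60.1 CPM) and SYT1 (27.8, 28.8, 21.3 and 26.3 CPM) were counted. CLDN4 followed the replicate number in both groups, with 2647, 35, 3144 and 46 counts. The part of these marker shifts in the results below was not tested.

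Several ER genes carry sequences through which ATF6 and XBP1 are known to act, and these are shown here. A gene without a match can still be a UPR target. RefSeq promoters (build GRCh38.p14, 250 bases before to 50 after a transcription start) were found for 42 of the 47 genes, 21 of each kind. The ER stress element (ERSE) was searched on both strands as CCAAT and CCACG with 9 bases of any kind between them. It lay in the promoters of 7 of the 21 ER genes and 0 of the 21 collagen processing genes, against 25 of all 27305 genes with a promoter (0.0916%). The 8 matches read 5′ to 3′ along the strand that carries the motif, with its fixed letters in capitals.
HSPA5 (chr9:125241391-125241409): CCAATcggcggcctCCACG
HSP90B1 (chr12:103930216-103930234): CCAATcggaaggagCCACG
HSP90B1 (chr12:103930321-103930339): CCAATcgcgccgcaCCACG
CALR (chr19:12938384-12938402): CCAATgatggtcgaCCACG
CANX (chr5:179698778-179698796): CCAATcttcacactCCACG
PDIA6 (chr2:10812853-10812871): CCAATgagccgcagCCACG
CRELD2 (chr22:49918554-49918572): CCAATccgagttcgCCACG
XBP1 (chr22:28800603-28800621): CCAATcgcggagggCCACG
HSP90B1 held 2 such elements, on opposite strands. The CANX match spanned 1 of the 4 starts listed for that gene, from position −9 to 9. In HSPA5 the match lay from −66 to −48 on the strand of the gene. The 150 bases before its start (chr9:125241344-125241493, minus strand) are shown with the fixed letters of the element in capitals.
HSPA5 upstream: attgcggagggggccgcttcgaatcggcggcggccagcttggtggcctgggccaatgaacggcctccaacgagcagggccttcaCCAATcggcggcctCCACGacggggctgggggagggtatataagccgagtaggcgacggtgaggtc
The related element ERSE-II was searched on both strands as ATTGG and CCACG with 1 base of any kind between them. It lay in the promoters of 3 ER genes and 0 collagen processing genes, against 19 of the 27305 genes (0.0696%).
SDF2L1 (chr22:21642114-21642124): ATTGGtCCACG
HYOU1 (chr11:119057274-119057284): ATTGGaCCACG
HYOU1 (chr11:119057380-119057390): ATTGGaCCACG
HERPUD1 (chr16:56932025-56932035): ATTGGgCCACG
HYOU1 held 2 copies of it. The element TGACGTGG (UPRE), searched on both strands, lay in the promoters of HYOU1, where it overlapped an ERSE-II, and of SEC23A, against 253 of all genes (0.927%). The 10 genes with an ERSE or ERSE-II were thus HSPA5, HSP90B1, CALR, CANX, PDIA6, CRELD2, XBP1, SDF2L1, HYOU1 and HERPUD1. A match is a run of letters in this window and shows no binding.

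**Figure D1:**
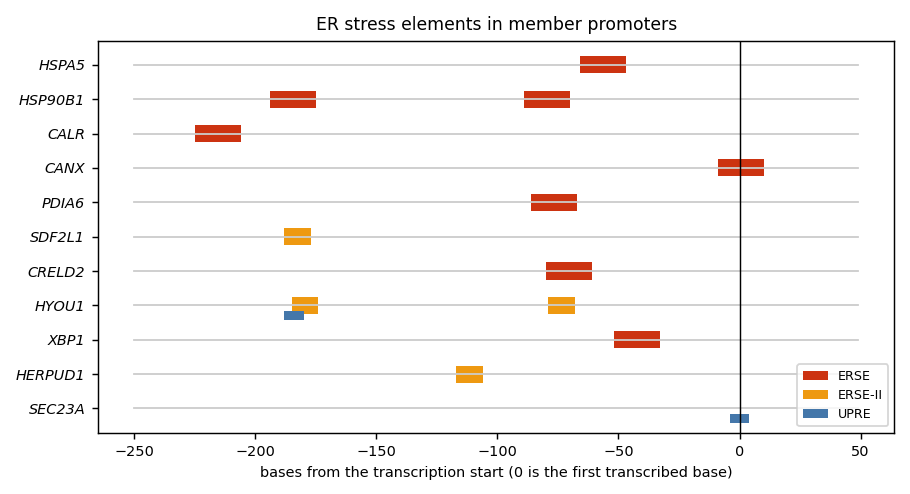
Position of ERSE, ERSE-II and TGACGTGG (UPRE) matches in the promoters of the 11 members that hold at least 1 of them, in bases from the transcription start on the horizontal axis. Of these, 10 are ER genes, and SEC23A, which has no ERSE or ERSE-II, is the only collagen processing gene.

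The question the series poses is how U251-MG cells with forced COL8A1 expression differ from their controls. Here it is asked of genes of ER folding and of collagen processing, not all of which act on type VIII collagen. None of the 45 members that could be tested passed an edgeR adjusted p of 0.05 in either direction. Over all 17030 genes tested the edgeR threshold was passed by 2 (0.0117%). COL8A1 was not among them (edgeR adjusted p = 0.0681), so a member that was not called is not thereby shown to be unchanged. The smallest adjusted p among the members was 0.742, that of ERN1, and in DESeq2 0 members passed, against 1.06% of all genes. At an unadjusted edgeR p under 0.05 there were 2 members, ERN1 and PCOLCE2, both lower in COL8A1 cells. Over all genes tested this held for 6.07%, with 3.44% higher and 2.63% lower. Log2 fold changes were positive in 26 and negative in 19 of the 45, against 50.2% positive over all genes tested. The median was 0.027, against 0.0011 over all genes tested. Because these are bulk libraries, fewer cells of a type and less RNA per cell cannot be told apart.

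The fitted differences were small. Of the 45 members, 36 lay within 0.25 of 0 on the log2 scale. Among the 41 members with a mean of at least 10 CPM the number was 35 (85.4%), against 82.5% of all 9948 genes at that level. The 95% interval of the log2 fold change excluded a 2-fold difference in both directions for 41 of the 45, the exceptions being CANX, LOXL3, ADAMTS14 and PCOLCE2. It excluded a 1.5-fold difference for 33. These shares were 91.1% and 73.3%. Over all genes tested they were 63.9% and 44.9%, and over genes with at least 10 CPM, as 41 of the 45 members had, 91.7% and 74.1%. Each interval covers 1 gene and is not adjusted for the number of genes. With 2 libraries a group, an exact permutation test of a single gene could not go below a two-sided p of 0.333, so that only the fit across all genes was used. Both COL8A1 libraries lay above both NC libraries in 8 of the 45 members and below them in 7. Over all genes tested the shares were 18.9% and 18.6%, or 37.5% together, so that 15 of 45 was not above the background.

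**Figure D2:**
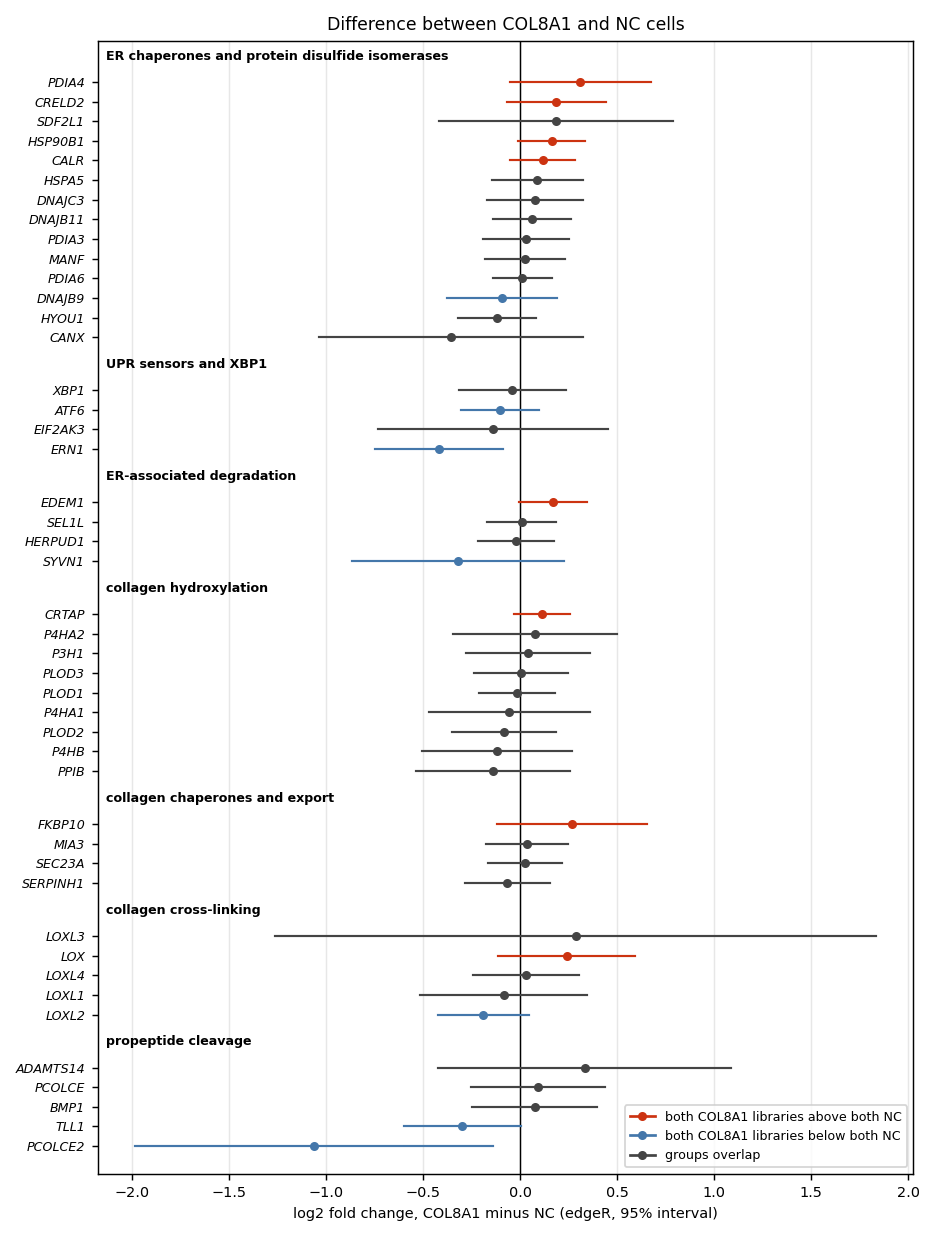
Log2 fold change (COL8A1 minus NC) of the 45 members tested, with the 95% interval from edgeR, by role and from highest to lowest within each role. Red and blue mark the 8 and 7 members whose groups did not overlap in CPM, and the intervals of ERN1 and PCOLCE2 alone lie wholly to one side of 0.

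The ER chaperones and disulfide isomerases were among the most abundant members. Their levels per length in NC cells had a median of 92.4 RPKM and ran from 4.36 for CRELD2 to 555 for CALR. Of 14 tested, 11 had positive and 3 negative log2 fold changes (median 0.068), and 0 had an unadjusted edgeR p under 0.05. HSPA5, the Hsp70 of the ER and the gene most used to read the UPR, had 705, 821, 830.0 and 794 CPM. NC replicate 1 was the lowest library and the groups overlapped. Its log2 fold change was 0.089 (SE 0.089, 95% interval −0.14 to 0.32), with an edgeR adjusted p = 0.887. In folds, this interval ran from 0.905 to 1.25.

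HSP90B1, the Hsp90 of the ER, had 1033, 1011, 1202 and 1087 CPM, with both COL8A1 libraries above both NC libraries. Its log2 fold change of 0.16 (SE 0.066, 95% interval −0.011 to 0.34) had the smallest p of this role (0.0602 unadjusted, edgeR adjusted p = 0.816). CALR, a lectin chaperone of glycoproteins, had 1511, 1501, 1712 and 1553 CPM, also without overlap, and a log2 fold change of 0.12 (SE 0.063, 95% interval −0.049 to 0.28). Its membrane-bound relative CANX had 1424, 1029, 1161 and 756 CPM. Replicate 2 was lower than replicate 1 in both groups, by 0.47 (NC) and 0.62 (COL8A1) on the log2 scale. The log2 fold change of CANX, −0.36 (SE 0.259, 95% interval −1.04 to 0.32), was smaller than either of these replicate differences. It was −0.083 without COL8A1 replicate 2, −0.10 without NC replicate 1 and −0.70 without COL8A1 replicate 1. So the pair of lectin chaperones had differences of opposite sign, and neither was called.

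Of the disulfide isomerases, PDIA4 had the largest positive log2 fold change of the role, 0.31 (SE 0.138, 95% interval −0.052 to 0.67). Its levels were 539, 411, 597 and 582 CPM, with no overlap and NC replicate 2 as the low library. The difference between the NC libraries, 0.39 on the log2 scale, exceeded that between the groups. The log2 fold change of PDIA4 was 0.13 without NC replicate 2 and 0.52 without NC replicate 1. PDIA6, a partner of BiP, had 719, 715, 748 and 698 CPM and PDIA3, which works with calreticulin and calnexin, 416, 471, 438 and 469 CPM. Their log2 fold changes were 0.012 (SE 0.058) and 0.031 (SE 0.084), and the groups overlapped in both.

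CRELD2 and MANF are ER-resident proteins that are secreted under ER stress. CRELD2 had 22.4, 22.6, 25.7 and 25.6 CPM, and its replicates lay closer together than those of any other member tested. The groups did not overlap, and the log2 fold change was 0.19 (SE 0.097, 95% interval −0.069 to 0.44, edgeR adjusted p = 0.835). MANF had 112, 122, 121 and 117 CPM and a log2 fold change of 0.027 (SE 0.078). SDF2L1, a BiP cofactor that the UPR raises strongly, had 11.5, 17.4, 16.8 and 16.0 CPM. Only NC replicate 1 stood apart in SDF2L1, at the low end, and the log2 fold change was 0.18 (SE 0.229, 95% interval −0.42 to 0.79).

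The J-domain partners of BiP showed no common shift. DNAJB9, an IRE1 and XBP1 target, had 20.6, 21.5, 19.3 and 20.2 CPM, with the COL8A1 libraries just below the NC libraries (log2 fold change −0.093, SE 0.108, 95% interval −0.38 to 0.19). DNAJB11, which brings unfolded clients to BiP, had 204, 188, 197 and 211 CPM and a log2 fold change of 0.061 (SE 0.077). DNAJC3, which also restrains PERK signalling, had 53.4, 51.7, 57.8 and 52.9 CPM and a log2 fold change of 0.075 (SE 0.094). HYOU1, an exchange factor of BiP, had 636, 599, 600.3 and 539 CPM and a log2 fold change of −0.12 (SE 0.076), the groups overlapping by a margin of under 1 CPM.

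Over the 10 genes with an ERSE or ERSE-II, 6 log2 fold changes were positive and 4 negative, with a median of 0.050 and a range of −0.36 (CANX) to 0.19 (CRELD2). The 11 other ER genes with a promoter had 6 positive and 5 negative values, a median of 0.0095 and a range of −0.42 (ERN1) to 0.31 (PDIA4). These are descriptions of overlapping sets of values, and no test was made between them. The genes without a match include UPR targets such as DNAJB9, so the sets do not divide UPR targets from other genes.

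The sensors at the head of the UPR and XBP1, taken as 1 role, were less abundant, from 1.44 RPKM for ERN1 to 22.5 for XBP1 in NC cells. All 4 genes of this role had negative log2 fold changes (median −0.12), and 1 had an unadjusted edgeR p under 0.05. ERN1 encodes IRE1, the kinase and ribonuclease that splices XBP1. It had 15.0, 16.2, 11.7 and 11.7 CPM (461, 546, 371 and 325 counts). Both COL8A1 libraries lay near 11.7 CPM and both NC libraries above 15. The means were 15.6 ± 0.824 CPM for NC and 11.7 ± 0.0204 CPM for COL8A1 (SD, n = 2 libraries per group), the log2 fold change −0.42 (SE 0.125, 95% interval −0.75 to −0.090) and the unadjusted p 0.0228 (edgeR adjusted p = 0.742). DESeq2 gave an unadjusted p of 0.0221 and an adjusted p of 0.596.

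ATF6, the sensor that is cut in the Golgi to release a transcription factor, had 92.0, 90.6, 82.4 and 87.7 CPM. Its COL8A1 libraries lay below the NC libraries by a small margin, with a log2 fold change of −0.10 (SE 0.077, 95% interval −0.30 to 0.10). EIF2AK3 (PERK), which slows translation, had 34.2, 41.2, 27.6 and 41.0 CPM. COL8A1 replicate 1 was the low library, and COL8A1 replicate 2 was within 1 CPM of NC replicate 2. The log2 fold change of EIF2AK3 was −0.14 (SE 0.225, 95% interval −0.73 to 0.45). XBP1 had 67.3, 68.8, 71.0 and 61.3 CPM, with a log2 fold change of −0.040 (SE 0.105, 95% interval −0.31 to 0.24). The counts cover the XBP1 gene as a whole, so that its spliced and unspliced forms were not separated here.

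The 4 ERAD genes went both ways (median −0.0062, 2 positive and 2 negative). HERPUD1, a scaffold of the degradation complex and a sensitive UPR target, had 80.2, 77.6, 77.5 and 78.0 CPM. All 4 of its libraries lay within 3 CPM of each other, and the log2 fold change was −0.022 (SE 0.075, 95% interval −0.22 to 0.17). SEL1L, the adaptor of the ubiquitin ligase HRD1, had 144, 141, 139.5 and 147 CPM and a log2 fold change of 0.0095 (SE 0.067). SYVN1, which encodes HRD1 itself, had 60.9, 59.3, 38.5 and 57.8 CPM. The groups did not overlap, but COL8A1 replicate 1 was far lower than the others, and without that library the log2 fold change was −0.057 instead of −0.32 (SE 0.208). SYVN1 shares exon bases with FAU and MRPL49, and reads in the shared bases cannot be told apart. EDEM1, a lectin that marks glycoproteins for disposal, had 139.8, 142, 162 and 155 CPM. Its COL8A1 libraries lay above the NC libraries (log2 fold change 0.17, SE 0.066, 95% interval −0.0043 to 0.34, unadjusted p 0.0539, edgeR adjusted p = 0.816).

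**Figure D3:**
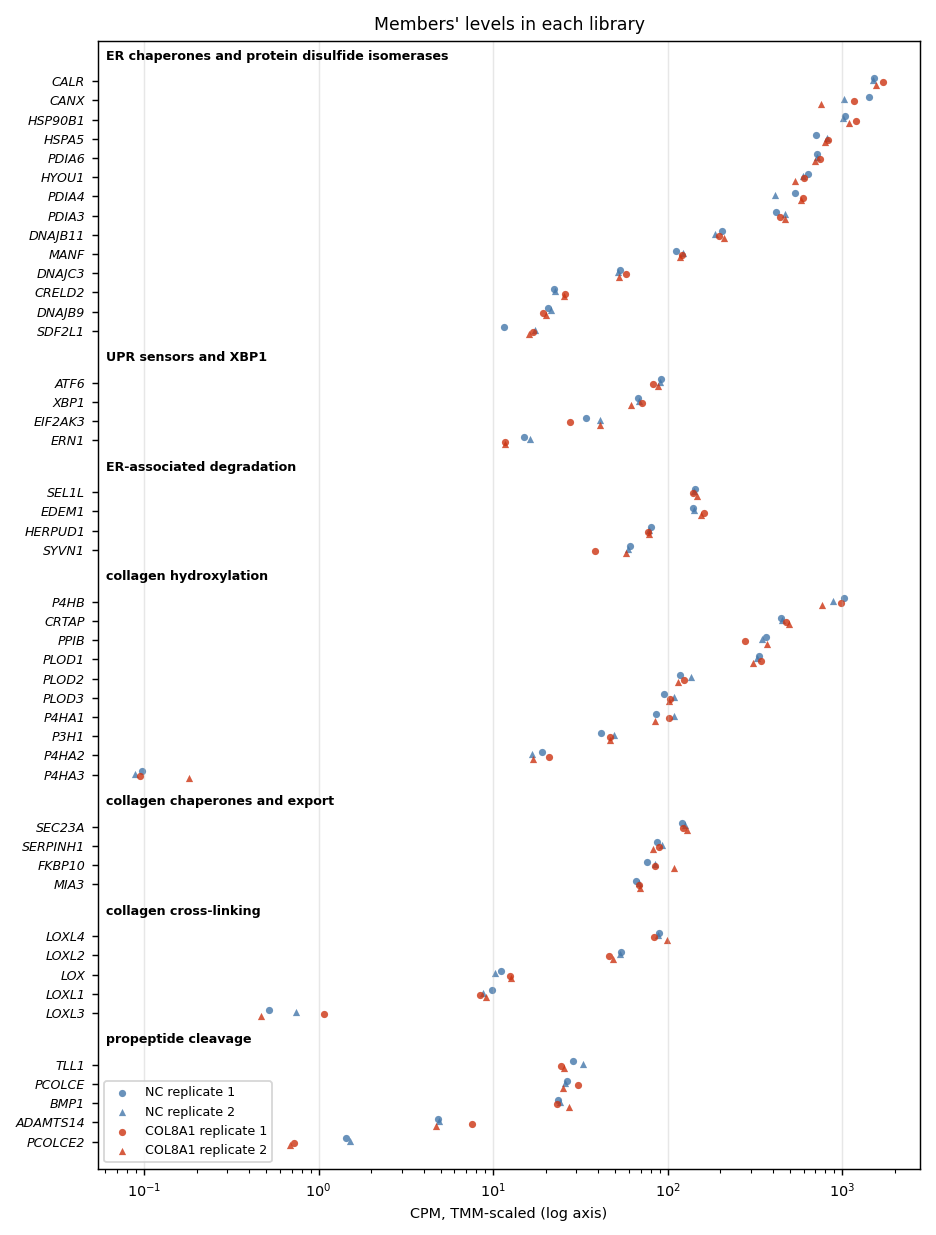
CPM on a log axis for the 46 members with counts, by role, with NC libraries in blue, COL8A1 libraries in red, circles for replicate 1 and triangles for replicate 2. For most genes the 4 points lie close together across a range from 0.0890 CPM (P4HA3) to 1712 CPM (CALR), and ADAMTS2, with 0 counts, is left out.

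Collagen hydroxylation takes place before the triple helix closes. This role held 10 genes, of which 9 could be tested. Their log2 fold changes ran from −0.14 to 0.11, 4 positive and 5 negative, with a median of −0.014 and 0 with an unadjusted edgeR p under 0.05. For all 9 the interval excluded a 1.5-fold difference. Prolyl 4-hydroxylase, whose product stabilises the helix, is made of an alpha subunit and the shared beta subunit P4HB, which is also a disulfide isomerase. P4HB had 1029.9, 882, 989 and 769.6 CPM, with replicate 2 the lower library in both groups, and a log2 fold change of −0.12 (SE 0.147, 95% interval −0.51 to 0.27). Of the catalytic subunits, P4HA1 had 85.3, 108, 102 and 85.0 CPM, P4HA2 had 19.1, 16.8, 21.0 and 16.9 CPM and P4HA3 had 3, 3, 3 and 5 counts. P4HA1 and P4HA2 had log2 fold changes of −0.055 (SE 0.157, 95% interval −0.47 to 0.36) and 0.077 (SE 0.160, 95% interval −0.35 to 0.50), with overlapping groups. P4HA3 was too low to be tested. Per length P4HA1 was at 31.3 and 30.2 RPKM in NC and COL8A1 cells, P4HA2 at 2.11 and 2.22 and P4HB at 180.3 and 166. The beta subunit was thus the most abundant of them in both groups.

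The lysyl hydroxylases, which prepare lysines for sugars and cross-links, were all expressed. PLOD1, which acts on the helical part, had 334, 325, 344 and 309 CPM. PLOD2, the telopeptide enzyme linked to stable cross-links, had 117, 136, 124 and 115 CPM, and PLOD3, which can also add sugars, had 95.4, 108, 103 and 101 CPM. In none of these 3 genes were the groups apart. Their log2 fold changes were −0.014 (SE 0.074), −0.083 (SE 0.102) and 0.0053 (SE 0.091). The order per length was PLOD1 at 62.0 and 61.4, PLOD3 at 18.0 and 18.0 and PLOD2 at 16.5 and 15.6 RPKM in NC and COL8A1 cells, and PLOD3 and PLOD2 stood close together.

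P3H1, CRTAP and PPIB form the complex that hydroxylates a single proline of fibrillar chains and speeds the turning of proline bonds. CRTAP had 445, 449.6, 474 and 493 CPM, the only gene of this role whose groups did not overlap. CRTAP had a log2 fold change of 0.11 (SE 0.054, 95% interval −0.030 to 0.26), with an unadjusted p of 0.0966 (edgeR adjusted p = 0.835). P3H1 had 41.4, 49.5, 46.5 and 46.9 CPM and a log2 fold change of 0.040 (SE 0.121). PPIB (cyclophilin B) had 366, 348, 277 and 372 CPM. COL8A1 replicate 1 was its low library, and the log2 fold change was −0.14 (SE 0.151, 95% interval −0.54 to 0.26). The other strand of PPIB holds SNX22, which shares 519 exon bases with it and had 3, 196, 4 and 239 counts. Without a known strand setting, reads of these genes cannot be told apart. Summing them gave a log2 fold change of −0.13 for PPIB. The 3 subunits of 1 complex therefore had small differences of either sign.

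Of the 4 collagen chaperone and export genes 3 had log2 fold changes within 0.1 of 0, the exception being FKBP10 (median of the role 0.032). SERPINH1 (HSP47), the chaperone specific to collagen, had 86.9, 92.4, 88.7 and 82.7 CPM. The log2 fold change of this gene was −0.065 (SE 0.083, 95% interval −0.28 to 0.15), and the groups overlapped. FKBP10, a proline isomerase that helps lysyl hydroxylation of collagen, had 75.7, 84.6, 84.6 and 109 CPM. COL8A1 replicate 2 was its highest library, while COL8A1 replicate 1 equalled NC replicate 2 to the digits shown. The fitted log2 fold change was 0.27 (SE 0.147, 95% interval −0.12 to 0.66, edgeR adjusted p = 0.835), and 0.075 without COL8A1 replicate 2. MIA3, which loads collagen into carriers, had 65.7, 68.7, 68.2 and 69.7 CPM and SEC23A, a COPII coat subunit, 120.1, 126, 122 and 129 CPM. Their log2 fold changes were 0.037 (SE 0.080, 95% interval −0.17 to 0.25) and 0.027 (SE 0.072, 95% interval −0.16 to 0.22).

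Among the lysyl oxidases, which form the aldehydes that cross-link collagen and elastin, LOXL4 and LOXL2 led. Per length LOXL4 stood at 24.4 and 24.9 RPKM in NC and COL8A1 cells, LOXL2 at 9.44 and 8.27, LOXL1 at 2.56 and 2.41, LOX at 1.92 and 2.27 and LOXL3 at 0.145 and 0.176. Of the 5, 3 had positive log2 fold changes (median 0.033), and 0 had an unadjusted edgeR p under 0.05. LOX had 11.1, 10.2, 12.5 and 12.7 CPM, both COL8A1 libraries being the higher ones, and a log2 fold change of 0.24 (SE 0.134, 95% interval −0.11 to 0.59, edgeR adjusted p = 0.835). LOXL2 had 54.4, 53.4, 45.8 and 48.6 CPM, both COL8A1 libraries being the lower ones, and a log2 fold change of −0.19 (SE 0.089, 95% interval −0.42 to 0.044, edgeR adjusted p = 0.835). LOX and LOXL2 thus lay apart in opposite directions, and neither passed the threshold. Each shares exon bases with a neighbour, LOX 138 bases (2.49% of its own) with SRFBP1 and LOXL2 120 bases (2.10%) with ENTPD4. When the counts were summed with all exon-sharing genes, their log2 fold changes were 0.077 and −0.073. Such a sum takes in all counts of the neighbour, 487, 528, 472 and 437 for SRFBP1 and 2015, 2294, 2276 and 1764 for ENTPD4. A smaller value there therefore does not place the difference in the shared bases. In the same setting LOXL3 was at 0.11 and LOXL1 at −0.035. LOXL3 shares 625 exon bases (14.3% of its own) with HTRA2, which had 735, 694, 693 and 592 counts. It also shares 216 with DOK1, which had 262, 117, 297 and 236 counts. LOXL3 itself had far fewer counts, so its value in that setting is mostly that of the neighbours.

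LOXL4 had 89.7, 88.4, 83.8 and 98.4 CPM and LOXL1 9.91, 8.69, 8.40 and 9.15 CPM. Both overlapped between groups, and the log2 fold change was 0.033 (SE 0.104) for LOXL4 and −0.085 (SE 0.163) for LOXL1. LOXL3 had 16, 25, 34 and 13 counts. The COL8A1 libraries were its highest and its lowest, and the log2 fold change, 0.29 (SE 0.589, 95% interval −1.26 to 1.84), allowed a 2-fold difference either way.

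The propeptide cleavage genes held the largest single difference. Of 6 genes 5 could be tested, with 3 positive and 2 negative values and a median of 0.075. PCOLCE2, an enhancer of procollagen C-proteinase, had 44, 51, 23 and 19 counts, or 1.43, 1.51, 0.724 and 0.684 CPM. Both COL8A1 libraries were close to 0.7 CPM and both NC libraries close to 1.5. This gave a log2 fold change of −1.06 (SE 0.351, 95% interval −1.98 to −0.14), with an unadjusted p of 0.0320 and an edgeR adjusted p = 0.780. For PCOLCE2, DESeq2 gave an unadjusted p of 0.0611 and an adjusted p of 0.940. At 19 to 51 counts a library this gene rests on few reads. Its relative PCOLCE was better counted, with 813, 869, 970 and 700 counts. PCOLCE had 26.5, 25.8, 30.5 and 25.2 CPM and a log2 fold change of 0.092 (SE 0.131, 95% interval −0.25 to 0.44), the groups overlapping.

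BMP1, the main C-proteinase, which also activates lysyl oxidase, had 23.6, 24.1, 23.1 and 27.1 CPM. The groups overlapped, with a log2 fold change of 0.075 (SE 0.123, 95% interval −0.25 to 0.40). TLL1, a protease of the same family, had 28.5, 32.7, 24.4 and 25.5 CPM, both COL8A1 libraries below both NC libraries. TLL1 had a log2 fold change of −0.30 (SE 0.115, 95% interval −0.60 to 0.0044), with an unadjusted p of 0.0522 (edgeR adjusted p = 0.816). The levels per length of these 2 proteases stood close together, 3.19 and 3.36 RPKM for BMP1 and 4.07 and 3.31 for TLL1. Of the N-proteinases, ADAMTS14 had 4.83, 4.93, 7.55 and 4.72 CPM. COL8A1 replicate 1 was its high library and COL8A1 replicate 2 its lowest, with a log2 fold change of 0.33 (SE 0.287, 95% interval −0.42 to 1.09). ADAMTS2 had 0 counts in each library, which allows at most 3 counts, or 0.0890 to 0.108 CPM, and covers counting error only.

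Replicate differences set the scale for these values. They were taken on log2 levels after 0.5 CPM was added, which shortens them in genes at low levels. The fold changes were fitted without this addition, so the measures are unlike for such genes. The larger of the replicate differences within NC and within COL8A1 cells had a median of 0.18 on the log2 scale over the 45 members, against 0.27 over all genes tested. The group difference exceeded it in 11 members (24.4%), against 30.3% of all genes tested. These values are not matched for level, since 41 of the 45 members had at least 10 CPM, against 9948 of the 17030 genes tested. The widest replicate differences were those of LOXL3 (0.70), ADAMTS14 (0.63), CANX (0.62), SDF2L1 (0.58), SYVN1 (0.58) and EIF2AK3 (0.56). CANX was the most deeply counted of these, with 43669, 34675, 36908 and 20987 counts. The narrowest were those of CRELD2, whose replicates differed by at most 0.011.

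**Figure D4:**
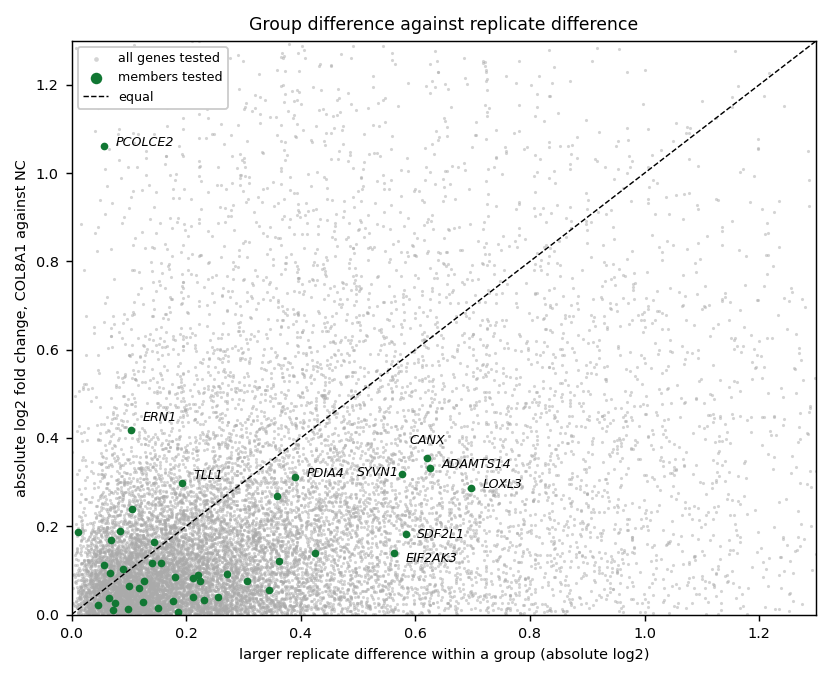
Absolute log2 fold change between the groups against the larger absolute log2 difference between replicates, for the 45 members (green) and all genes tested (grey, those beyond 1.3 on either axis not shown). Replicate differences were taken after 0.5 CPM was added, and fold changes were fitted without it. ERN1, PCOLCE2 and TLL1 lie above the line of equality, and CANX, SYVN1, SDF2L1, EIF2AK3, ADAMTS14 and LOXL3 lie far below it.

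The neighbouring genes of the pathways gave a similar picture. Of 129 further genes in 6 lists, 124 could be tested, and 0 passed the adjusted edgeR threshold, against 0.0117% of all genes tested. At an unadjusted edgeR p under 0.05, 4 were higher and 1 was lower. Over all genes tested 3.44% were higher and 2.63% lower, so that 5 of 124 was not above the background. The median log2 fold change of the 124 was −0.0089. In the list of other UPR and PERK branch genes, 5 of 17 were positive (median −0.049). MBTPS1, the Golgi protease that makes the first cut in ATF6, had 105, 108, 127 and 127 CPM and a log2 fold change of 0.25 (SE 0.065, 95% interval 0.082 to 0.43), with an unadjusted p of 0.0134 (edgeR adjusted p = 0.662). WFS1, an ER membrane protein of calcium balance, had 19.5, 17.0, 22.4 and 25.0 CPM and a log2 fold change of 0.38 (SE 0.131). Neither the PERK effector ATF4 (53.6, 64.2, 57.4 and 50.8 CPM) nor its target DDIT3 (21.8, 39.7, 33.1 and 33.1 CPM) had an unadjusted p under 0.05. PPP1R15B, which recruits the phosphatase that resets the PERK branch, had 3026, 5499, 2879 and 379 counts, and COL8A1 replicate 2 alone was low.

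The other folding and glycosylation genes had 22 of 37 positive values (median 0.017). First by p were PRKCSH, the beta subunit of glucosidase II (log2 fold change 0.18, SE 0.061, unadjusted edgeR p 0.0360), and the proline isomerase FKBP2 (log2 fold change −0.21, SE 0.099). The other ERAD genes had 10 of 20 positive (median 0.0047). Their smallest p-values were those of the ubiquitin-conjugating enzyme UBE2G2 (log2 fold change −0.16, SE 0.085) and of EDEM3 (log2 fold change −0.36, SE 0.190). EDEM3 had 104, 96.8, 64.1 and 92.6 CPM, and COL8A1 replicate 1 alone was far lower than the rest. The translocation genes had 8 of 23 positive (median −0.023), with SRP72 (log2 fold change −0.13, SE 0.068) and SRPRA (log2 fold change 0.085, SE 0.063), of the signal recognition particle and its receptor, first by p. The COPII genes had 6 of 17 positive (median −0.070), with log2 fold changes of −0.20 (SE 0.076) for SEC23B and 0.44 (SE 0.209) for TMED2. TMED2, a cargo receptor of these carriers, had 257, 286, 444 and 293 CPM, and COL8A1 replicate 1 alone was far higher than the rest. SEC23B, the close relative of SEC23A, had 124, 123, 111 and 102 CPM, both COL8A1 libraries being lower (unadjusted edgeR p 0.0484).

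Of the other collagen processing genes 11 of 16 could be tested and 8 were positive (median 0.033). SPARC, a secreted collagen-binding protein, had 312, 327, 393 and 358 CPM, both COL8A1 libraries being higher, with a log2 fold change of 0.23 (SE 0.073, 95% interval 0.040 to 0.42, unadjusted p 0.0271, edgeR adjusted p = 0.749). TLL2, another protease of the BMP1 and TLL1 family, had 28, 14, 42 and 47 counts and a log2 fold change of 1.18 (SE 0.515, 95% interval −0.17 to 2.54), with an edgeR adjusted p = 0.826. CREB3L1, ADAMTS3, MEP1A, MEP1B and PCSK6 had 14 counts or fewer in each library and were not tested.

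**Figure D5:**
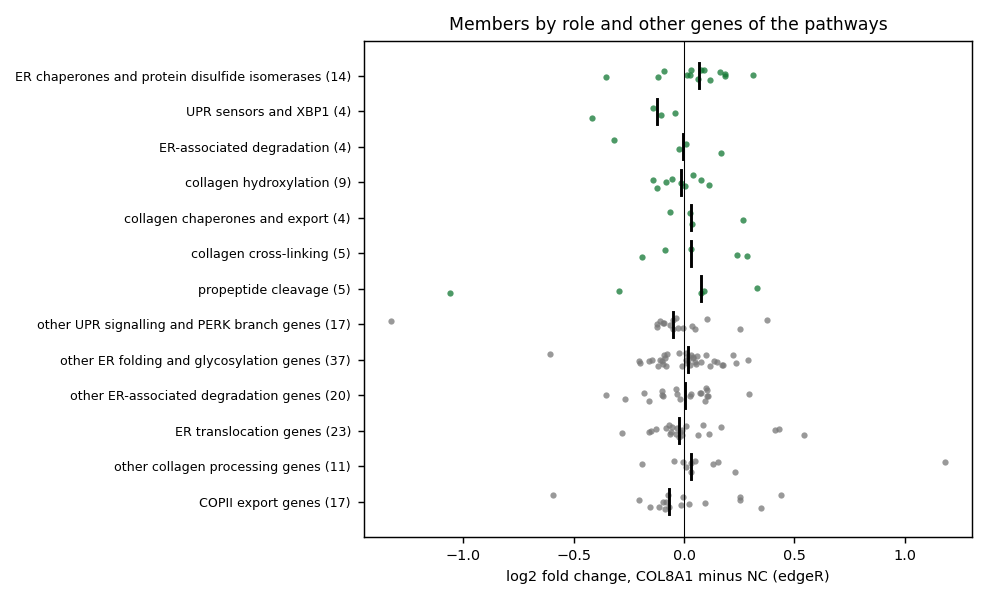
Log2 fold changes (COL8A1 minus NC) of the members by role (green) and of the other genes of the pathways (grey), with 1 point per gene tested, the number of genes in parentheses and the median as a black bar. All 13 medians lie between −0.12 and 0.075, and the points farthest from 0 are PPP1R15B, TLL2 and PCOLCE2.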

How the data were processed

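RNA of U251-MG cells was sequenced in 4 libraries. The authors deposited unnormalized counts of reads over genes in a single table whose 4 columns match the sample titles. Per the submitters' processing notes, the build was hg38 and the tools included HISAT2 2.2.1, Trim Galore 0.6.9 and a featureCounts release given as 0.3. Settings, strandedness and gene models were not stated in the sources used here. One line that named no gene, with 0 counts, was left out.

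All 61806 genes entered edgeR 4.0.16 (R 4.3.3): filterByExpr, TMM, and the quasi-likelihood F-test with group as the only term, adjusted by Benjamini-Hochberg over the 17030 genes left. Residual degrees of freedom were 2 and prior degrees of freedom 2.64. Each SE was taken as |log2 fold change| over the root of F, and 95% intervals use 4.64 degrees of freedom. The fits were run on simulated counts with fold changes planted in well-counted genes. That run checked the median estimates and their sign, not how many planted genes were called. Exon lengths and overlaps came from GENCODE release 29 (GRCh38), which may differ from the models used for counting. In promoters, 44 of 52 entries had the 30 bases after their start in a GENCODE transcript of the gene.

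Alternatives were DESeq2 1.42.0, limma-voom (limma 3.58.1), other scaling and filters, robust shrinkage, a replicate block, counts summed over exon-sharing genes, and leaving out each library. The replicate numbers were not used as pairs, since deviations of same-numbered libraries had a correlation of −0.036 across genes. Single genes such as CLDN4 and SNX22 did follow the number in both groups, and a preparation or counting difference by number was not tested. The members and lists were chosen with earlier results of these data known. Named were all members and the 2 genes with the smallest p of each pathway list. Named after their values were seen were ATF4, DDIT3, PPP1R15B, SNX22 and other exon-sharing genes, the markers named and the genes at or near 0 counts. Some marker genes are not reported here.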

Additional observations from a re-analysis of the deposited data

How the results depend on the processing

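No member passed an adjusted p of 0.05 under any of the 13 alternatives, and the lowest adjusted p was 0.397, without NC replicate 1. Under the 9 alternatives that kept all 4 libraries, each member tested kept its direction. The count of all genes called was 17 without a low-count filter, 180 in DESeq2, 14 with robust shrinkage, 1 with the replicate block and 0 to 3 with a library left out, against 2. The replicate block called 0 members, and the pairing it assumes rests on the numbers alone. Members at an unadjusted p under 0.05 numbered 4 without a low-count filter, 1 in DESeq2 and 1 to 5 with a library left out, against 2. In DESeq2, 981 of the 17030 genes tested had such a p. For the other alternatives no such count over all genes is given here, so these member counts cannot be set against a background. Leaving out a library leaves 1 group with a lone library, assumed to vary like the others. The median log2 fold change then ran from −0.0022 to 0.10 for the ER chaperones and from −0.29 to −0.072 for the UPR sensors and XBP1. For ERAD it ran from −0.030 to 0.014, for hydroxylation from −0.090 to 0.045 and for collagen chaperones and export from −0.0021 to 0.062. Leaving out a library gave a median from −0.092 to 0.042 for cross-linking and from −0.053 to 0.069 for propeptide cleavage. It turned the sign in 24 of 45 members, whose log2 fold changes ranged as follows: HSPA5 −0.018 to 0.20, PDIA3 −0.057 to 0.12, PDIA6 −0.039 to 0.057, SDF2L1 −0.088 to 0.51, MANF −0.035 to 0.088, EIF2AK3 −0.46 to 0.12, XBP1 −0.15 to 0.059, HERPUD1 −0.049 to 0.00051, SEL1L −0.031 to 0.046, P4HA1 −0.22 to 0.13, P4HA2 −0.090 to 0.22, P4HB −0.31 to 0.045, PLOD1 −0.092 to 0.056, PLOD2 −0.19 to 0.024, PLOD3 −0.086 to 0.10, P3H1 −0.084 to 0.17, PPIB −0.37 to 0.057, SEC23A −0.015 to 0.065, LOXL1 −0.18 to 0.012, LOXL3 −0.43 to 0.75, LOXL4 −0.092 to 0.14, BMP1 −0.047 to 0.19, PCOLCE −0.053 to 0.22 and ADAMTS14 −0.048 to 0.63. The 21 that kept their sign ranged as follows: HSP90B1 0.089 to 0.23, CALR 0.044 to 0.18, CANX −0.70 to −0.083, PDIA4 0.13 to 0.52, DNAJB9 −0.13 to −0.059, DNAJB11 0.00046 to 0.12, DNAJC3 0.010 to 0.13, CRELD2 0.18 to 0.19, HYOU1 −0.20 to −0.045, ATF6 −0.15 to −0.058, ERN1 −0.47 to −0.37, SYVN1 −0.64 to −0.057, EDEM1 0.13 to 0.20, CRTAP 0.081 to 0.14, SERPINH1 −0.12 to −0.019, FKBP10 0.075 to 0.44, MIA3 0.0035 to 0.067, LOX 0.18 to 0.29, LOXL2 −0.24 to −0.15, TLL1 −0.39 to −0.20 and PCOLCE2 −1.10 to −1.03. The cause of these changes was not tested. Low counts limit LOXL3 and PCOLCE2, and P4HA3 and ADAMTS2 were too low to be tested.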
